A study of Mus musculus with 6 samples.

Results

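Toll-like receptors (TLRs), NOD-like receptors (NLRs) and the proteins that carry their signals were described in tumor-associated macrophages (TAMs) of YUMM1.7 melanomas. The genes were taken by name from the deposited tables. They are the protein-coding genes whose symbol begins with Tlr, Nlr, Naip or Irak, together with *Nod1*, *Nod2*, *Aim2*, *Pycard*, *Myd88*, *Ticam1*, *Ticam2*, *Tirap*, *Card9*, *Cd14*, *Ly96* and *Ripk2*. Of 44 rows with such names, 41 were protein-coding, and all 41 had at least 10 counts summed over the 6 libraries. They are 41 of the 14776 protein-coding genes that were tested.

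YUMM1.7, a mouse melanoma cell line, was injected intradermally into untreated wild-type (WT) female C57Bl/6J mice that were 8 weeks old. On day 21, live CD45+CD11b+ cells, negative for lineage markers according to the methods of the study, were sorted by the level of F4/80, a surface protein of macrophages encoded by *Adgre1*, into F4/80high and F4/80low TAMs, and bulk RNA-seq was performed on 3 libraries of each subset. The 3 replicates are 3 independent experiments on 10 pooled tumors each, so that a library averages over mice and holds whatever cell types passed the gate. In bulk RNA, fewer cells of a type and less RNA per cell cannot be told apart.

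TLRs are membrane receptors that bind microbial lipids, proteins and nucleic acids, some at the plasma membrane and others in endosomes, and they signal through adaptors with a TIR domain, chiefly MyD88, to the IRAK kinases and on to NF-κB. NOD1 and NOD2 sense peptidoglycan fragments in the cytosol and signal through the kinase RIPK2. Other NLRs, together with the DNA sensor AIM2, assemble inflammasomes with the adaptor ASC, which activate caspase-1. Macrophages and monocytes express most of these genes, and several are also expressed in neutrophils.

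The libraries held 16045281 to 43604373 counts. The F4/80high and F4/80low libraries of replicate 3 stand apart from the other 4. They were drawn as a second batch in the principal component plot of the study, they were the shallowest, and *Lars2* with 2 predicted genes (*Gm15564* and *Gm23935*) made up 17.1% and 16.1% of their reads, where the other libraries had 0.378% to 0.609%. The 41 genes took 0.185% to 0.577% of the counts of a library. *Adgre1* was higher in F4/80high TAMs in each pair of same-numbered libraries, at 273, 539 and 360 CPM, the count scaled to the depth of its library with TMM factors, against 243, 326 and 183 CPM, and the subsets overlapped. Its log2 fold change was 0.67 ± 0.30 (SE) with an adjusted p of 0.673. Differences are given throughout as F4/80high minus F4/80low, on the log2 scale.

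The receptors and their partners were detected over a wide range of levels. Per kilobase of transcript, the scale on which genes of different length can be compared, *Cd14*, the co-receptor that hands lipopolysaccharide to TLR4, had the highest mean level at 994 CPM per kilobase. It was followed by *Tlr2*, the receptor for bacterial lipopeptides, at 97.5, *Pycard*, which encodes ASC, at 50.8, *Tlr13*, a receptor for bacterial ribosomal RNA, at 49.4 and *Myd88* at 42.7 CPM per kilobase. *Nlrp10* and *Naip1* had the lowest, at 0.0898 and 0.158 CPM per kilobase, with at most 34 and 59 counts in a library. These means are over all 6 libraries, and their order is a description. They use the gene lengths of the deposited tables. For *Pycard* that length was 1405 bases, against 3800 bases of exons in the GENCODE M21 annotation, so its place in the order depends on the annotation.

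**Figure D1:**
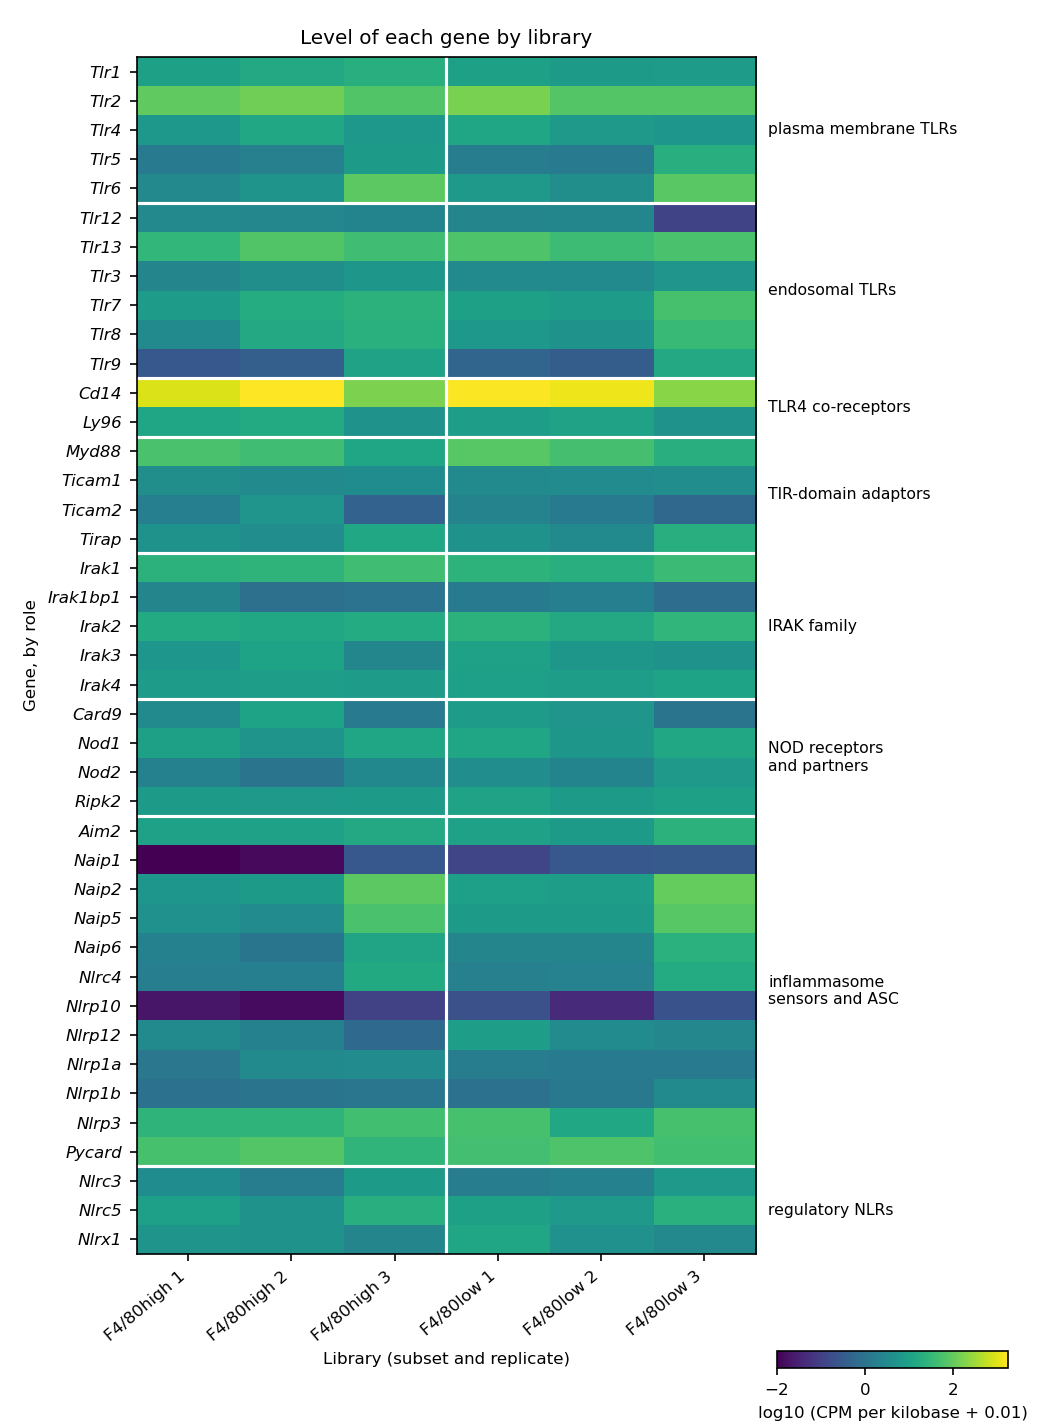
Levels of the 41 genes in the 6 libraries, as log10 of CPM per kilobase plus 0.01, with genes in rows grouped by role and libraries in columns; the white vertical line separates the F4/80high from the F4/80low libraries. *Cd14* is the highest row, and the libraries of replicate 3 differ from the others in many rows, such as *Tlr6*, *Tlr9* and the *Naip* genes, in both subsets alike.

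None of the 41 genes passed the test between the subsets. With edgeR's quasi-likelihood test and a term for batch, 0 of 41 were called at an adjusted p under 0.05 and a fold change above 1 on the log2 scale, beside 0% of all genes, and the lowest adjusted p among the 41 was 0.516. An unadjusted p under 0.05 was found for 5 of 41 (12.2%), 1 higher and 4 lower in F4/80high TAMs, beside 7.57% of all genes. The median difference of the 41 genes was −0.19, beside 0.01 for all genes. The 3 replicate pairs gave medians of −0.48, 0.13 and −0.31, with an SD of 0.32 that exceeds the median itself.

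When the block was the replicate pair and batch was left out, edgeR called 0 of 41, beside 0.514% of all genes, with a lowest adjusted p of 0.174, and 6 had an unadjusted p under 0.05, beside 9.84% of all genes. DESeq2 called 0 of 41 with the batch term, beside 1.02% of all genes. It called 2 of 41, *Nod2* and *Nlrp12*, with the replicate block, beside 2.42% of all genes.

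By direction alone, 14 of the 41 genes (34.1%) were lower in F4/80high TAMs in all 3 replicate pairs, beside 15.7% of all genes, and 3 were higher in all 3 pairs, beside 16% of all genes. The 14 genes were *Myd88*, *Irak2*, *Irak4*, *Nod1*, *Nod2*, *Ripk2*, *Naip1*, *Naip2*, *Naip5*, *Naip6*, *Nlrc4*, *Nlrp10*, *Nlrp12* and *Nlrc5*, and the 3 genes were *Tlr1*, *Tlr12* and *Ly96*. None of the receptors lower in all 3 pairs was a TLR. A further 12 genes (29.3%) were lower in pairs 1 and 3 and higher in pair 2, beside 10.7% of all genes. In pair 2, all 11 TLR genes were higher in F4/80high TAMs, beside 46.6% of all genes. In pair 1, 2 of them were higher, beside 50.9% of all genes, and 1 of these, *Tlr1*, was at 0.00. In pair 3, 5 were higher, beside 48.7% of all genes. For 3 genes, *Tlr1*, *Irak4* and *Ripk2*, the values of the subsets did not overlap over the 6 libraries, beside 5.16% of all genes.

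**Figure D2:**
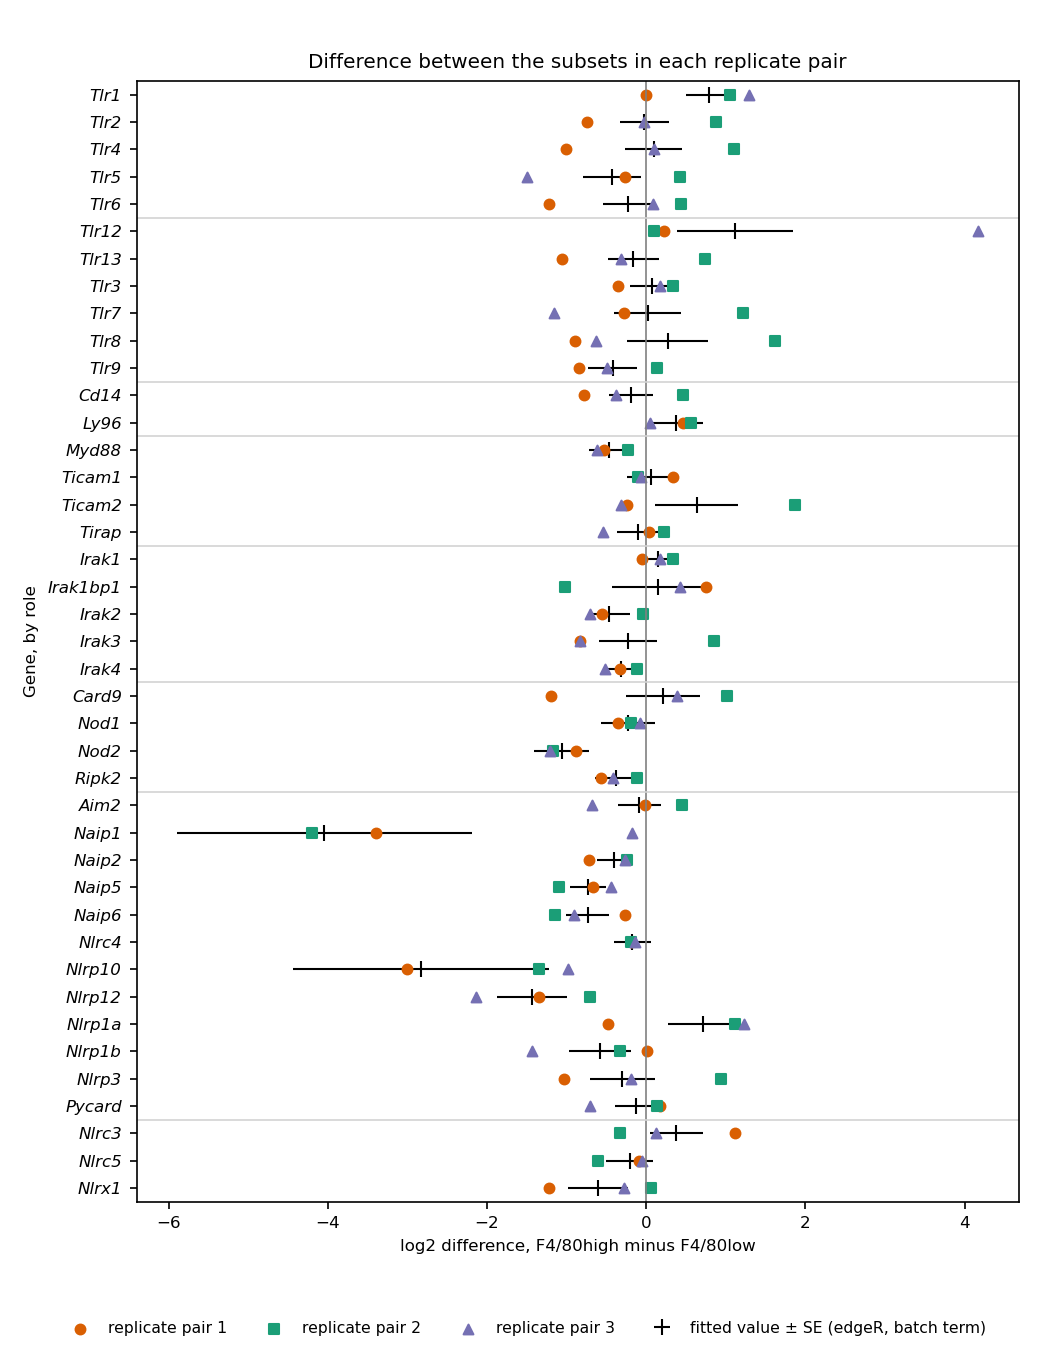
Difference between F4/80high and F4/80low TAMs in log2 CPM for each of the 41 genes (rows, grouped by role) in each replicate pair (colored points), with the fitted value and its SE from edgeR with a batch term (black tick and bar). All *Tlr* genes lie right of 0 in pair 2, while *Nod2*, *Nlrp12*, *Naip5*, *Naip6* and *Myd88* lie left of 0 in all 3 pairs.

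Markers of other cell types moved with the subsets as well. All 12 neutrophil genes of a marker list had a fitted value lower in F4/80high TAMs, and 10 were lower in all 3 pairs, with each gene above 3 counts in at least 1 library. Their summed level was 2146, 934 and 752 CPM in F4/80high and 4902, 3136 and 1532 CPM in F4/80low replicates 1, 2 and 3, a difference of −1.19, −1.75 and −1.03. Within this list, *Ly6g*, the gene of the neutrophil surface antigen, was at 4.61, 1.32 and 1.19 CPM against 8.87, 3.98 and 1.48 CPM. All 9 eosinophil genes were lower too, with summed differences of −1.06, −2.5 and −1.18, and 7 of 10 monocyte genes were lower in all 3 pairs, with summed differences of −0.82, 0.30 and −0.84. The 7 macrophage genes differed in sum by −0.30, 0.63 and −0.16, with *Csf1r*, the receptor that macrophages depend on, at 436 to 1411 CPM in the 6 libraries. The monocyte and macrophage sums had the signs of the 12 genes above, lower in pairs 1 and 3 and higher in pair 2, but many of their genes did not. In replicate 2, the higher monocyte sum rested on *F13a1* and *Fn1*, at 2071 and 2050 CPM in F4/80high against 421 and 1093 CPM in F4/80low. Of the macrophage genes, *Adgre1*, *Mertk* and *Cd68* were higher in all 3 pairs. *Ptprc* was lower in all 3, at 2050 against 2923 CPM in replicate 3, and the negative macrophage sum of pair 3 rested on it. *Ptprc* and *Itgam* encode CD45 and CD11b, the markers by which all cells were sorted, so the macrophage sum is not particular to macrophages. Summed genes of dendritic cells differed by −0.47, −0.54 and −0.30 and those of mast cells and basophils by −0.36, −2.24 and −2.03. T and NK cell genes differed by 1.41, −0.54 and 1.13, B and plasma cell genes by 0.78, −1.11 and 0.72, and 4 melanoma genes by 0.36, 0.82 and 0.67. Most of the melanoma sum was *Mitf*, which macrophages also express, at 16.5, 21.5 and 167 CPM in F4/80high TAMs, while the pigment genes *Pmel* and *Mlana* were at no more than 1.81 CPM and at 1 count in a single library. Fibroblast genes differed by −0.24, −1.26 and −0.31 and endothelial genes by −0.09, −0.27 and −0.09. The part of these cell types in the results below was not tested.

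Apart from the sparse *Naip1* and *Nlrp10*, the largest differences toward F4/80low TAMs belonged to *Nlrp12* and *Nod2*. *Nlrp12* (chromosome 7, 3218784 to 3249740, minus strand, GRCm38) encodes an NLR known to restrain NF-κB signalling and expressed mainly in myeloid cells. It was at 14.2, 8.77 and 2.59 CPM in F4/80high and at 36.2, 14.4 and 11.6 CPM in F4/80low replicates 1, 2 and 3. Each F4/80low library was above its F4/80high partner, and the subsets overlapped across experiments. The difference was −1.44 ± 0.44 (SE), with an unadjusted p of 0.00931 and an adjusted p of 0.516 by edgeR. With the replicate block it was −1.36 with an adjusted p of 0.174, and DESeq2 with the block gave an adjusted p of 0.0252. The alternative fits ranged from −1.85 to −1.03.

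*Nod2* (chromosome 8, 88647315 to 88688474, plus strand) encodes the receptor for muramyl dipeptide. Its levels were 9.83, 5.08 and 14.3 CPM in F4/80high and 18.2, 11.5 and 32.9 CPM in F4/80low replicates 1, 2 and 3. F4/80low was the higher of each pair, and the 3 pair differences were close to each other at −0.88, −1.17 and −1.2, although the subsets overlapped across experiments. The fitted difference was −1.06 ± 0.35, with an adjusted p of 0.530 by edgeR with batch and 0.176 with the block. DESeq2 with the block gave an adjusted p of 0.0408. In alternative fits the difference ranged down to −1.40 and up to −0.88.

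The promoters of these genes are shown because of these differences, with those of *Naip5*, *Naip2* and *Tlr1*, which are described further on. The sequences are from RefSeq on GRCm38.p6, run 5′ to 3′ on the strand of the gene, and span a start annotated there. RefSeq places the start of *Naip5* upstream of that in GENCODE M21, so its window lies outside the gene span given further on. The windows lie at chr8:88647097-88647396 (plus strand, *Nod2*), chr7:3249691-3249990 (minus, *Nlrp12*), chr13:100247287-100247586 (minus, *Naip5*), chr13:100202073-100202372 (minus, *Naip2*) and chr5:64933509-64933808 (minus, *Tlr1*). Capitals mark a match to 1 of 4 motifs searched on both strands, the NF-κB consensus, AP-1 (TGANTCA), the interferon response element ISRE (TTTCNNTTTC) and PU.1 (GAGGAAG). *Naip5* has a match to the NF-κB consensus and *Tlr1* a match to PU.1, the factor of the myeloid lineage, while these letters were not in the windows of the other 3.
Nod2: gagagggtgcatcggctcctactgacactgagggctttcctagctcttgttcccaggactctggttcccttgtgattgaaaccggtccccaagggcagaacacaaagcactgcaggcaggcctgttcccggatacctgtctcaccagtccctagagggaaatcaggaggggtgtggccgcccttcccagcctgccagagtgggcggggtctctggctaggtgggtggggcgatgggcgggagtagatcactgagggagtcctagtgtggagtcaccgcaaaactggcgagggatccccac
Nlrp12: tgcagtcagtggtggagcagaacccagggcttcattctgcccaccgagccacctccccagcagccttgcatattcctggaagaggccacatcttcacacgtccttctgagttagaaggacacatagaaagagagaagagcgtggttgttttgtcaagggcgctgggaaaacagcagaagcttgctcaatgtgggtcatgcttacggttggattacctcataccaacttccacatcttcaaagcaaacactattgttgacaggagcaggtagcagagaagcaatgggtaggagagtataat
Naip5: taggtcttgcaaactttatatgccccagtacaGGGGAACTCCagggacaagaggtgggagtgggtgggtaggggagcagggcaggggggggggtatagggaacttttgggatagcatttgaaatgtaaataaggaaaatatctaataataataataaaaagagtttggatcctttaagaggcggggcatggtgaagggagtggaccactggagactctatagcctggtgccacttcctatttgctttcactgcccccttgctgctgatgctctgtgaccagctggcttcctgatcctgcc
Naip2: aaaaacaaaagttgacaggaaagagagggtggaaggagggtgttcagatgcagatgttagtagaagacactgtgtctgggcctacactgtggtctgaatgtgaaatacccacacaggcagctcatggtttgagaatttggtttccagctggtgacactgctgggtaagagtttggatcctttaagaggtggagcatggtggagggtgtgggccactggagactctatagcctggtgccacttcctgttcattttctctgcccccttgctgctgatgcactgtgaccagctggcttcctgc
Tlr1: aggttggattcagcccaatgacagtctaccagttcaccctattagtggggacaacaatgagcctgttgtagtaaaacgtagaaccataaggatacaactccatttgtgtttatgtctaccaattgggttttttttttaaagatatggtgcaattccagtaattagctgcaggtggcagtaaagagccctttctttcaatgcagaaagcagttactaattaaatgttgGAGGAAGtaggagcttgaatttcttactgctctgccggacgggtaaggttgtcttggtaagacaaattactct

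Of the 41 genes, 33 matched a promoter in the table, with 42 starts in all. The NF-κB consensus was in 6 of these 42 promoters and in 8.46% of all 32851 promoters of the table, AP-1 in 1 and in 7.81%, ISRE in 2 and in 3.44%, and PU.1 in 9 and in 13.6%. *Tlr1* has a second start whose promoter holds none of the 4 motifs. A match is a description of the letters and was not related to any measured binding.

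Among the plasma membrane TLRs, which sense lipids and proteins outside the cell, *Tlr1* had the only unadjusted p under 0.05. *Tlr1* (chromosome 5, 64924679 to 64933563, minus strand) encodes the partner of TLR2 in the recognition of triacylated lipopeptides. It was at 32.5, 49.1 and 64.9 CPM in F4/80high and at 32.4, 23.6 and 26.4 CPM in F4/80low replicates 1, 2 and 3. All F4/80high values were above all F4/80low values, but in replicate 1 by 0.00 on the log2 scale, against 1.05 and 1.29 in replicates 2 and 3. Its difference was 0.79 ± 0.29 with an adjusted p of 0.584 by edgeR with batch. Without replicate 1, edgeR with the block gave 1.17 and an adjusted p of 0.04997, in a fit that called 380 of all 14776 genes. Of the 50-base stretches of *Tlr1*, 13.6% also occur in its neighbor *Tlr6*, so that reads could have been split between them or lost.

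*Tlr2*, the most abundant TLR gene per kilobase, was at 280, 391 and 202 CPM in F4/80high and at 471, 212 and 206 CPM in F4/80low replicates 1, 2 and 3. F4/80low was higher in pair 1, F4/80high was higher in pair 2, and pair 3 was nearly level. The fitted difference was −0.02 ± 0.31 (adjusted p = 0.994, edgeR).

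*Tlr4*, the receptor for lipopolysaccharide, showed the same order of pairs, at 34.2, 77.6 and 34.0 CPM in F4/80high and at 68.5, 36.1 and 31.9 CPM in F4/80low replicates 1, 2 and 3. Its pair differences ran from −1.0 in pair 1 to 1.10 in pair 2, and the fitted value was 0.09 ± 0.36 (adjusted p = 0.964, edgeR). *Tlr5*, the receptor for flagellin, and *Tlr6*, the partner of TLR2 for diacylated lipopeptides, differed by −0.43 ± 0.36 and −0.23 ± 0.31, again with signs that changed between pairs.

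The endosomal TLRs, which recognize nucleic acids or, in the case of *Tlr12*, a profilin of parasites, numbered 6, and none had an unadjusted p under 0.05. *Tlr13* was at 122, 269 and 181 CPM in F4/80high and at 254, 162 and 224 CPM in F4/80low replicates 1, 2 and 3. The fitted difference was −0.16 ± 0.32 (adjusted p = 0.934, edgeR), with pair 2 opposite in sign to pairs 1 and 3.

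*Tlr7*, a receptor for single-stranded RNA, was at 31.5, 70.9 and 93.4 CPM in F4/80high and at 38.1, 30.5 and 209 CPM in F4/80low replicates 1, 2 and 3. The difference of 0.02 ± 0.42 (adjusted p = 0.997, edgeR) averages pair differences of −0.28, 1.22 and −1.16. *Tlr8*, its neighbor on the X chromosome, had the same signs with pair differences of −0.90, 1.62 and −0.63.

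*Tlr9*, the receptor for unmethylated CpG DNA, was at 0.932, 1.3 and 36.0 CPM in F4/80high and at 1.73, 1.18 and 50.7 CPM in F4/80low replicates 1, 2 and 3. The spread between replicate 3 and the others was far wider than that between the subsets, whose fitted difference was −0.42 ± 0.31 (adjusted p = 0.761, edgeR). *Tlr3*, which senses double-stranded RNA, differed by 0.08 ± 0.29. *Tlr12* differed by 1.11 ± 0.72, a value that rests on F4/80low replicate 3, where it had 3 counts against 67 in F4/80high replicate 3, while it differed by 0.23 and 0.09 in pairs 1 and 2.

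Levels of the TLR4 co-receptors overlapped between the subsets. *Cd14* was at 1489, 2752 and 252 CPM in F4/80high and at 2551, 1998 and 328 CPM in F4/80low replicates 1, 2 and 3. Its level in both libraries of replicate 3 lay below every other library, and the fitted difference between the subsets was −0.19 ± 0.28 (adjusted p = 0.900, edgeR). *Ly96*, which encodes MD-2, the lipopolysaccharide-binding partner of TLR4, was higher in F4/80high TAMs in all 3 pairs by 0.46, 0.56 and 0.05, with a fitted difference of 0.37 ± 0.33.

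*Myd88* (chromosome 9, 119335934 to 119341411, minus strand) was the adaptor of 4 with one direction in all pairs. It was at 138, 111 and 32.4 CPM in F4/80high and at 198, 131 and 49.9 CPM in F4/80low replicates 1, 2 and 3. F4/80low was the higher of each pair, with overlap across experiments, and the difference of −0.47 ± 0.24 had an unadjusted p of 0.0826 and an adjusted p of 0.698 by edgeR with batch. With the block the unadjusted p was 0.0468 and the adjusted p 0.498. An exon of *Acaa1a* on the opposite strand overlaps 11.3% of its exon length, and whether counting used the strand is not given. *Tirap*, the bridging adaptor of MyD88, and *Ticam1* and *Ticam2*, which encode TRIF and its bridge TRAM, differed by −0.10, 0.06 and 0.63, with signs that changed between pairs. *Tmed7* on the same strand overlaps 14.5% of the exon length of *Ticam2*, where the strand cannot separate their reads.

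The IRAK family follows MyD88, and 3 of its 5 genes had a negative fitted value. *Irak3* encodes IRAK-M, the member known to restrain the pathway in macrophages. It was at 20.6, 39.8 and 9.5 CPM in F4/80high and at 36.6, 22 and 17.0 CPM in F4/80low replicates 1, 2 and 3, and pair 2 ran opposite to the other pairs. Its difference was −0.23 ± 0.36 (adjusted p = 0.912, edgeR). The kinase genes *Irak4* and *Irak2* were lower in F4/80high TAMs in all pairs, by −0.32 ± 0.22 and −0.46 ± 0.25, and *Irak4* was at 37.0 to 40.7 CPM in F4/80high and 43.9 to 56.3 CPM in F4/80low without overlap. *Irak1* differed by 0.15 ± 0.21 and *Irak1bp1*, which encodes an IRAK1-binding protein, by 0.15 ± 0.58.

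Of the NOD receptors and their partners, *Nod1*, *Nod2* and *Ripk2* were lower in F4/80high TAMs in all 3 pairs. *Nod1*, the receptor for diaminopimelic acid-type peptidoglycan, was at 43.1, 23.3 and 55.6 CPM in F4/80high and at 55.3, 26.6 and 58.8 CPM in F4/80low replicates 1, 2 and 3. The pairs differed little and the experiments more, with a fitted difference of −0.23 ± 0.34 (adjusted p = 0.905, edgeR). *Ripk2* was at 18.8 to 20.2 CPM in F4/80high and 20.3 to 30.1 CPM in F4/80low, a difference of −0.38 ± 0.26. *Card9*, the adaptor of C-type lectin receptors that also takes part in NOD2 signalling, differed by 0.21 ± 0.46, at −1.2 in pair 1 and 1.01 in pair 2.

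Of the 12 inflammasome genes (sensors and ASC), 11 had a negative fitted value, beside 49.2% of all genes, with a median of −0.49, but 0 passed the test. Of the 12, 7 were lower in F4/80high TAMs in all 3 pairs, beside 15.7% of all genes. The 7 include all 4 *Naip* genes, which share sequence, so that these counts are not of independent genes. They also include *Nlrp10*, which like *Naip1* had few counts. *Nlrp1a* was the gene with a positive value, 0.72 ± 0.44. The group includes the *Naip* genes, whose proteins bind flagellin or the needle and rod proteins of bacterial secretion systems and then recruit NLRC4. They lie together on chromosome 13, from the start of *Naip2* at 100144063 to the end of *Naip1* at 100452869.

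*Naip5*, a flagellin receptor (chromosome 13, 100211739 to 100246323, minus strand), was at 23.7, 17.5 and 290 CPM in F4/80high and at 37.8, 37.3 and 396 CPM in F4/80low replicates 1, 2 and 3. F4/80low was the higher of each pair, and both libraries of replicate 3 were above all others. The difference was −0.73 ± 0.23 with an adjusted p of 0.530 by edgeR with batch and 0.229 with the block, and DESeq2 with the block gave an adjusted p of 0.0453 at a fold change below the threshold.

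*Naip6*, the other flagellin receptor (chromosome 13, 100281121 to 100317674, minus strand), was at 13.5, 7.43 and 79.9 CPM in F4/80high and at 16.2, 16.5 and 150 CPM in F4/80low replicates 1, 2 and 3. It showed the same arrangement as *Naip5*, with a difference of −0.73 ± 0.27 and an adjusted p of 0.591 (edgeR). Of the 50-base stretches of *Naip5*, 36.9% occur in another gene and 22.3% in *Naip6*, so that the values of these genes are not independent and the split between them is uncertain. The *Naip5* promoter shown above is 61.8% identical to that of *Naip2* and 42.7% to that of *Naip6* in a pairwise alignment with gaps. The promoters of *Naip2* and *Naip6* are 45.2% identical. No unrelated promoters were aligned, so these values have no baseline. The *Naip6* window, chr13:100316567-100316866, lies inside the gene span given here.

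*Naip2*, whose protein binds rod proteins and which shares 19.1% of its stretches with other genes, differed by −0.40 ± 0.22, lower in all pairs. *Naip1*, which shares 31.5% of its stretches with other genes, had 0, 1 and 13 counts in F4/80high and 24, 59 and 14 counts in F4/80low replicates 1, 2 and 3, and its fitted value of −4.04 had an SE of 1.86 and an adjusted p of 0.683 (edgeR). *Nlrp10*, with 2, 1 and 4 counts against 34, 6 and 8, was as sparse. *Nlrc4*, the adaptor of the NAIP proteins, was at 6.53, 7.14 and 58.8 CPM in F4/80high and at 7.47, 8.15 and 64.7 CPM in F4/80low replicates 1, 2 and 3. Its 3 pairs differed by only −0.19, −0.19 and −0.14, with a fitted value of −0.17 ± 0.24 (adjusted p = 0.896, edgeR).

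*Nlrp3*, the sensor that responds to potassium efflux and many danger signals, was at 103, 107 and 181 CPM in F4/80high and at 211, 55.6 and 207 CPM in F4/80low replicates 1, 2 and 3. The lowest and the highest value both belonged to F4/80low, and the difference was −0.30 ± 0.41 (adjusted p = 0.897, edgeR).

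*Aim2* was at 34.5, 34.6 and 51.0 CPM in F4/80high and at 34.7, 25.3 and 82.1 CPM in F4/80low replicates 1, 2 and 3, a difference of −0.09 ± 0.27 (adjusted p = 0.96, edgeR). *Pycard* was at 74.7, 97.0 and 38.7 CPM in F4/80high and at 66.4, 88.1 and 63.1 CPM in F4/80low replicates 1, 2 and 3, a difference of −0.13 ± 0.27 (adjusted p = 0.938, edgeR). For both genes the sign changed between pairs, and a gene on the opposite strand overlaps 12.8% of the exon length of *Pycard* in GENCODE M21. *Nlrp1b*, a sensor of protease activity such as that of anthrax lethal factor, differed by −0.58 ± 0.39.

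The regulatory NLRs were *Nlrc5*, a transactivator of MHC class I genes, *Nlrc3*, an inhibitor of innate signalling, and *Nlrx1*, a mitochondrial NLR. They differed by −0.21 ± 0.29, 0.38 ± 0.33 and −0.60 ± 0.37. *Nlrc5* alone had one direction in the 3 pairs.

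**Figure D3:**
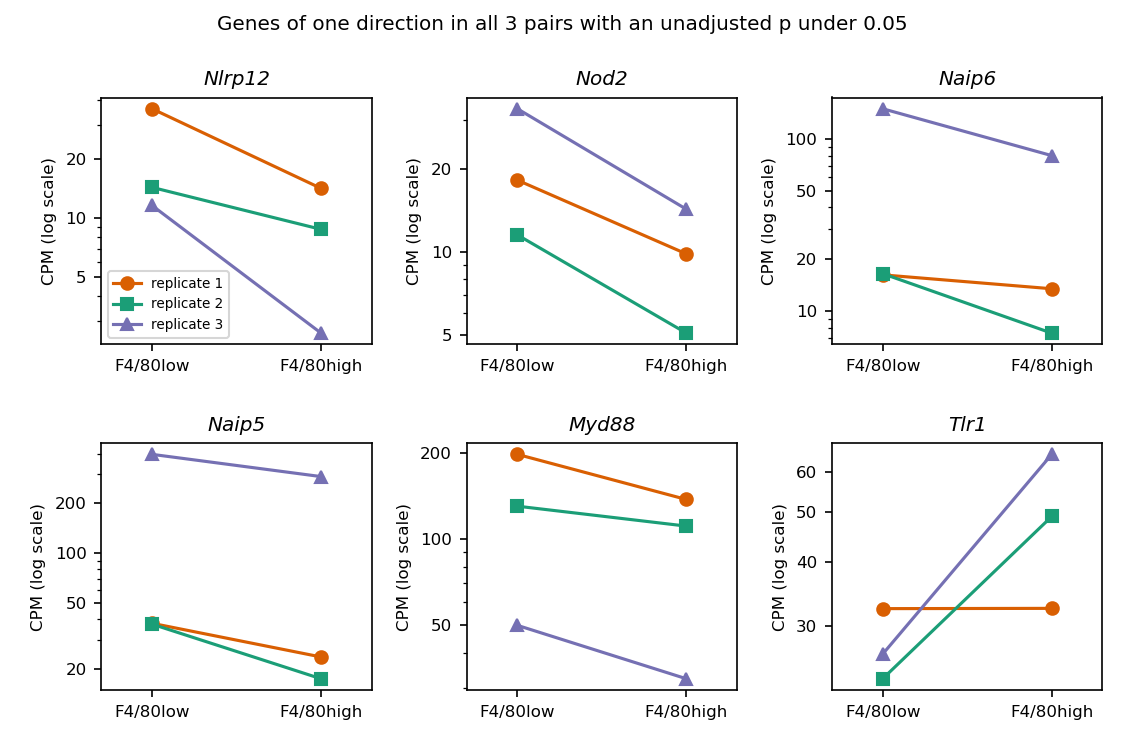
CPM on a log scale of the 6 genes with one direction in all 3 replicate pairs and an unadjusted p under 0.05 with batch or with the replicate block, with F4/80low on the left and F4/80high on the right of each panel and a line joining the libraries of a replicate. *Nlrp12*, *Nod2*, *Naip5*, *Naip6* and *Myd88* slope down in all 3 replicates, and *Tlr1* slopes up in replicates 2 and 3 and is level in replicate 1.

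The difference between experiments was larger than that between subsets for many of these genes. It was examined after the values had been seen, as the batch term of the same fit, replicate 3 against replicates 1 and 2. Here 22 of the 41 genes (53.7%) passed the test, beside 37.9% of all genes. Of these, 14 were higher in batch 2, beside 17.8% of all genes, and 8 lower, beside 20.1% of all genes. The median over the 41 genes was 0.63, beside −0.35 over all genes. Batch 2 is 1 experiment, so experiment, sequencing and RNA cannot be told apart. The test treats its 2 libraries as independent, so the p-values of the batch term do not measure the spread between experiments.

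Higher in batch 2 were *Tlr9*, 33.4-fold with a log2 difference of 5.06 ± 0.33 (adjusted p = 5.84e-06, edgeR), and *Tlr6*, 17.6-fold with 4.14 ± 0.33. *Naip2*, *Naip5*, *Naip6* and *Nlrc4*, receptors and adaptor of 1 inflammasome, rose by 3.63, 3.61, 3.07 and 3.08, and *Tlr5*, which senses flagellin as NAIP5 does, by 3.02. *Tirap*, *Tlr8* and *Tlr7* followed with 2.00, 2.01 and 1.83. In contrast, *Tlr1*, which lies beside *Tlr6* on chromosome 5, differed by 0.31 ± 0.30, and *Tlr13* by 0.00 ± 0.35.

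Lower in batch 2 were *Cd14*, which fell by 2.93 on the log2 scale (SE 0.34, adjusted p = 0.000196, edgeR), *Card9*, *Ticam2* and *Myd88*, at −2.5, −2.35 and −1.83, and *Nlrp12*, *Nlrx1*, *Ly96* and *Irak3*, at −1.57, −1.27, −1.25 and −1.2. The set lower in batch 2 thus holds both TLR4 co-receptors, whereas *Tlr4* itself differed by −0.72 ± 0.39 and did not pass the test. *Pycard*, *Nlrp3* and *Tlr2* did not pass it either, at −0.70, 0.71 and −0.73. The within-batch values between the subsets are the pair differences given above, with pairs 1 and 2 in batch 1 and pair 3 in batch 2.

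**Figure D4:**
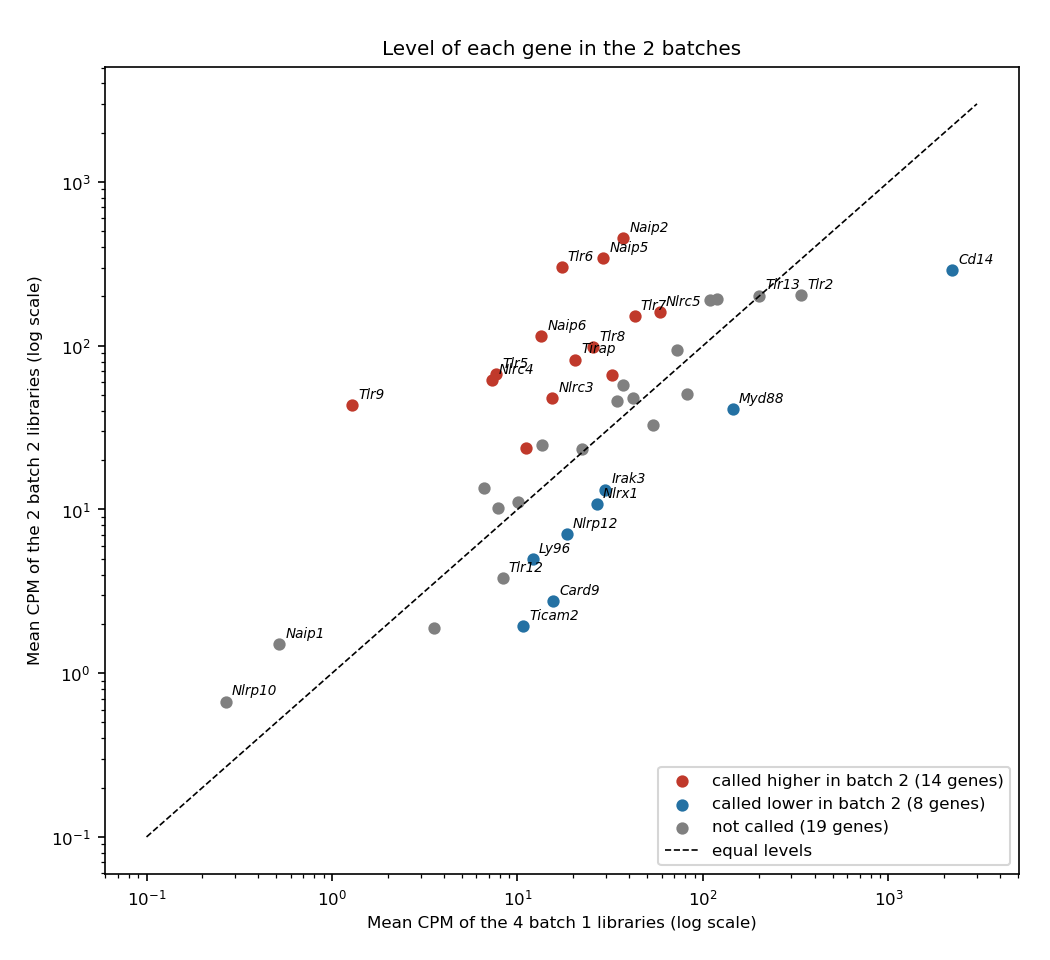
Mean CPM of each of the 41 genes in the 2 libraries of batch 2 (replicate 3) against the 4 libraries of batch 1 (replicates 1 and 2), both on log scales, with genes called higher in batch 2 in red, called lower in blue and not called in grey, and the dashed line marking equal levels. *Tlr9*, *Tlr6* and the *Naip* genes lie above the line and *Cd14* lies farthest below it, while *Tlr13* lies on it.

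Other genes of the pathways were read from 6 lists with 122 entries, of which 117 were tested. With batch, edgeR called 0 of them, beside 0% of all genes, with 6 higher and 7 lower at an unadjusted p under 0.05 (11.1%, beside 7.57% of all genes). The median of all was −0.12. With the block, 2 passed the test (1.71%, beside 0.514% of all genes), and 0 passed it with the block without replicate 3, beside 23 of all 14776 genes. *Lgmn*, a lysosomal protease that cleaves endosomal TLRs, was higher in F4/80high TAMs by 1.3 (adjusted p = 0.0363, edgeR), at 704, 1989 and 820 against 340, 600 and 375 CPM without overlap. *Lcn2*, an iron-binding protein induced by TLR signals and abundant in neutrophils, was lower by −1.35 (adjusted p = 0.0363, edgeR), at 104, 48.6 and 28.3 against 266, 146 and 60.1 CPM.

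The lists are described by their counts, beside the 50.8% of all genes with a positive and the 49.2% with a negative fitted value, and none was tested as a set. Of 17 genes of chaperones and ligand handling, 13 were positive and 9 were higher in all 3 pairs, beside 16% of all genes, with a median of 0.26. The smallest p-values after *Lgmn* belonged to *Pld3*, an endosomal nuclease, at 0.72 ± 0.24 and *Ctsb*, a lysosomal protease, at 1.06 ± 0.41, and on the other side to *Lbp*, the lipopolysaccharide-binding protein, at −1.06 ± 0.59.

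Of 24 negative regulators, 17 were negative and 10 lower in all 3 pairs, beside 15.7% of all genes, with a median of −0.25. The smallest p-values belonged to *Cd300lf*, an inhibitory receptor, at −0.97 ± 0.22, *Dusp1*, a phosphatase of MAP kinases, at −0.48 ± 0.21 and *Nfkbia*, the inhibitor of NF-κB, at −0.78 ± 0.35. On the other side were *Tnip2*, *Otulin* and *Sigirr* at 0.53 ± 0.38, 0.33 ± 0.23 and 0.59 ± 0.42.

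Among 30 kinases and ubiquitin ligases, 21 were negative, with *Btk* at −0.81 ± 0.21, *Birc3* at −0.89 ± 0.29 and *Trim56* at −0.78 ± 0.29, against *Ikbke* at 0.52 ± 0.28, *Ecsit* at 0.38 ± 0.27 and *Rnf135* at 0.51 ± 0.38. Of 13 transcription factors, 8 were negative. *Rel* and *Nfkb2*, both subunits of NF-κB, were at −0.65 ± 0.35 and −0.54 ± 0.31 and *Irf5* at −0.37 ± 0.23, while *Fos*, *Irf8* and *Jun* were at 0.24 ± 0.21, 0.29 ± 0.25 and 0.10 ± 0.27.

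Among 15 inflammasome effectors, 11 were negative with a median of −0.49. *Mefv*, which encodes pyrin, was at −0.98 ± 0.47 and *Gsdmd*, the pore-forming protein of pyroptosis, at −0.52 ± 0.27, whereas *P2rx7*, the ATP-gated channel upstream of NLRP3, was at 1.04 ± 0.39 and *Nek7*, which binds NLRP3, at 0.37 ± 0.24. Of 19 cytokine and enzyme genes induced by TLRs, 12 were negative. *Ccl4* and *Il10* were at 0.85 ± 0.22 and 0.86 ± 0.30, and *Cxcl2* was at −0.60 ± 0.21. None of these values passed the test in edgeR with batch, and the neutrophil, eosinophil and monocyte genes lower in F4/80high TAMs are given above beside the members.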

How the data were processed

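Bulk RNA-seq was performed on 3 F4/80high and 3 F4/80low TAM samples. The authors deposited, for each library, a table with the raw read count, length and biotype of each of 23424 genes. Reads were aligned at a sequencing center, and the aligner, build, annotation, strand and counting rule are not given in the sources used here. All 41 genes were found by ID in GENCODE M21 (GRCm38), from which coordinates were taken, 27 with the same length. No library was a copy of another.

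The quasi-likelihood test of edgeR 4.0.16 (R 4.3.3, TMM) was run on the 14776 genes given as protein-coding in the tables that had 10 or more counts in sum, with terms for batch (replicates 1 and 2 against 3, as the study drew them) and subset. P-values were adjusted by Benjamini-Hochberg over all these genes. Calls needed an adjusted p under 0.05 and a log2 fold change beyond 1 in either direction. The SE given with an edgeR value was derived, as the absolute log2 fold change divided by the square root of the test's F statistic. DESeq2 1.42.0, the replicate block, other normalizations and filters, and fits without each library served as alternatives. CPM is counts per TMM-scaled library size, and pair differences are of log2 CPM with a prior count of 2. The p-values with the batch term measure the spread of libraries within a batch, and do not use the pairing of replicates 1 and 2. Those with the replicate block measure the spread of the pair differences over 3 experiments.

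Same-numbered libraries were taken to come from the same experiment. What they deviated by from their subset's mean correlated at 0.745, 0.729 and 0.907 over 10089 genes. Differently numbered libraries within batch 1 correlated nearly as highly, at 0.633 and 0.613, and those across batches at −0.821 to −0.751. These correlations therefore mainly separate the batches. Within batch 1 alone, same-numbered libraries correlated at 0.241, so the pairing of replicates 1 and 2 rests mainly on their numbers.

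Values in every library are given for genes with an unadjusted p under 0.05 with batch or block and one direction in all pairs, for 13 receptors and adaptors of general interest, and for the 5 genes with the highest level per kilobase. Of each pathway list, genes were named from the 3 with the smallest p in each direction. The genes and lists were chosen with earlier results of these data known, and no list was tested as a set. Other cells' marker lists (dendritic, B and plasma, T and NK, mast and basophil, melanoma, fibroblast and endothelial) were summed as well. Promoters were read from RefSeq (GRCm38.p6).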

Additional observations from a re-analysis of the deposited data

Results flagged for a closer look

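Of the rows whose names fit the gene families, 3 were left out of the comparisons because the deposited tables give them as pseudogenes. They were looked at because they held counts outside the main measurement. *Nlrp1c-ps* had 1177 counts in all. Its level was 6.70, 9.62 and 6.37 CPM in F4/80high and 4.01, 4.64 and 0.797 CPM in F4/80low replicates 1, 2 and 3. F4/80high was the higher of each pair, as in 16% of the protein-coding genes tested. The subsets did not overlap, as in 5.16% of those genes. The value of F4/80low replicate 3 rests on 7 counts. *Nlrp1c-ps* was not tested in the protein-coding fit. *Naip3* had 20 counts and *Nlrp5-ps* had 5, the latter all in F4/80low replicate 3.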

How the results depend on the processing

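The 19 alternatives of the fit were read for the calls, the median and each of the 18 genes given by library. Members called numbered 0 in the reported fit and over the fits without 1 library, 2 by DESeq2 with the replicate block (*Nod2* and *Nlrp12*) and 1 with the replicate block without replicate 1 (*Tlr1*). The last 2 of these fits called 357 and 380 of all 14776 genes. Members with an unadjusted p under 0.05 numbered 5 in the reported fit, 0 with no batch term, 3 without replicate 3 of both subsets, 15 with the replicate block without replicate 2, and 2 (without F4/80high or F4/80low replicate 3) to 7 (without F4/80low replicate 2) over the fits without 1 library. The median was −0.53 with the replicate block without replicate 2, and −0.42 (without F4/80high replicate 2) to −0.04 (without F4/80low replicate 1) over the fits without 1 library. Pathway genes called numbered 2 with the replicate block, also by adjusted p alone, 2 by DESeq2 with batch or with the block, 9, 2 and 0 with the block without replicates 1, 2 and 3, and 0 in each fit without 1 library. The block without replicates 1, 2 and 3 called 380, 107 and 23 of all 14776 genes. Of the 18 genes, 8 kept their direction in every alternative.

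Over the fits without 1 library, the others ranged from −0.29 to 0.36 (*Tlr2*), −0.35 to 0.40 (*Tlr4*), −0.61 to 0.087 (*Tlr13*), −0.59 to 0.58 (*Tlr7*), −0.55 to 0.0012 (*Cd14*), −0.67 to 0.044 (*Irak3*), −0.50 to 0.15 (*Nod1*), −0.30 to 0.20 (*Aim2*), −0.67 to 0.43 (*Nlrp3*) and −0.35 to 0.15 (*Pycard*). *Tlr2* was also at 0.035 with the replicate block, 0.020 with library size alone, 0.036 by DESeq2 with the block and 0.00061 with all biotypes, and *Tlr7* at −0.081 with the replicate block, −0.50 with no batch term and −0.081 by DESeq2 with the block. With the replicate block without replicate 1, *Tlr2* was at 0.43, *Tlr13* at 0.21, *Cd14* at 0.043, *Irak3* at 0.046 and *Nlrp3* at 0.37. Without replicate 2 *Tlr4* was at −0.51 and *Tlr7* at −0.76, and without replicate 3 *Tlr2* was at 0.069, *Irak3* at 0.017, *Aim2* at 0.22 and *Pycard* at 0.16. Without replicate 3 and the batch term, *Irak3*, *Aim2* and *Pycard* were at 0.044, 0.20 and 0.15. The cause was not tested. The replicate block changed no other call.

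With 3 experiments and the libraries of replicate 3 at 16045281 and 16204810 counts, genes with few counts, such as *Naip1* and *Nlrp10*, have wide errors.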
